A study of Bos taurus and Sus scrofa with 6 samples.

Results

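The cells described here are TCF21 interstitial stromal cells of the prepubertal cattle testis, taken from single-cell RNA-sequencing libraries of dissociated testis tissue. They were 4030 of the 18504 barcodes with enough RNA in 3 cattle libraries. A barcode was a member when at least 2 of the 4 stromal genes TCF21, PDGFRA, DCN and LUM had a unique molecular identifier (UMI, a tag that counts each captured RNA molecule once) and at most 1 of the 4 contractile genes ACTA2, MYH11, CNN1 and ACTG2 had one. Barcodes with RNA of several germ cell, Sertoli cell, Leydig cell, endothelial or cell division genes were dropped. Members were thus chosen by the UMIs of 26 genes, and these genes are described here without a test.

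The 3 animals were Holstein cattle aged 4.5 months whose testes were obtained by castration, and the labels name no treatment and no genetic change. Testis parenchyma was digested with trypsin and then with collagenase and DNase, no cell type was sorted, and 1 library was made per animal from some 8000 live cells. The study used the libraries, with pig and mouse ones, to compare testis cells between species and to look for germ cell genes. Each cattle library was counted as 1 animal, since the tissue came from different cattle and each title carries its own code, although 2 of them carry the same testis number.

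The interstitium is the tissue between the seminiferous tubules, and it holds Leydig cells, which make androgens and INSL3, blood vessels, macrophages and a fibroblast-like stroma. Peritubular myoid cells are flat, contractile cells that wrap the tubules and lie beside this stroma. TCF21 is a basic helix-loop-helix transcription factor of mesenchymal cells, and TCF21-positive stroma is known from mice as a source of fibroblasts, myoid cells and Leydig cells. PDGFRA is a receptor for platelet-derived growth factors, and DCN (decorin) and LUM (lumican) are proteoglycans that organise collagen fibrils.

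The UMI minimum, set from the largest barcodes of each library, was 460, 972 and 2644 in cattle 1, 2 and 3, which 3545, 8751 and 6208 barcodes reached. In cattle 2 these were more than the some 8000 live cells loaded, so some of them may not be cells. The libraries held 5805223, 27409347 and 53325608 UMIs in all, so that cattle 1 was the shallowest and cattle 3 the deepest. At least 2 stromal genes had a UMI in 776, 4084 and 3820 of these barcodes. Contractile genes then removed 229, 1575 and 2097 of them, and genes of another cell type removed 52, 308 and 389 more. Leydig genes accounted for 33, 165 and 171 of the last group and Sertoli genes for 4, 83 and 185. The members that remained were 495, 2201 and 1334, or 14.0%, 25.2% and 21.5% of the barcodes, with exact 95% binomial intervals of 12.8 to 15.1, 24.2 to 26.1 and 20.5 to 22.5, which cover counting error only. Their mean share was 20.2% ± 5.70 (SD, n = 3). Cattle 1 was lowest and cattle 2 highest, and the intervals of the 3 animals did not overlap. The study kept more cattle cells than these barcodes after filters whose limits are not given in the sources used here, so these shares have a denominator of their own.

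The share followed the rule closely. When at least 3 stromal genes were asked for, the mean fell to 9.70%, with 2.17% in cattle 1, 10.7% in cattle 2 and 16.2% in cattle 3. When no contractile gene was allowed it was 9.14%, and without the drops for other cell types it was 24.0%. With every barcode thinned to 460 UMIs it was 16.2%, from 392, 1621 and 1177 barcodes. Cattle 1 stayed lowest at that common depth, and cattle 3, at 19.0%, came out just above cattle 2, at 18.5%. With a minimum of 1000 UMIs in every library the share of cattle 1 was 6.06%, or 70 of 1156 barcodes, with 24.8% in cattle 2 and 23.9% in cattle 3.

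**Figure D1:**
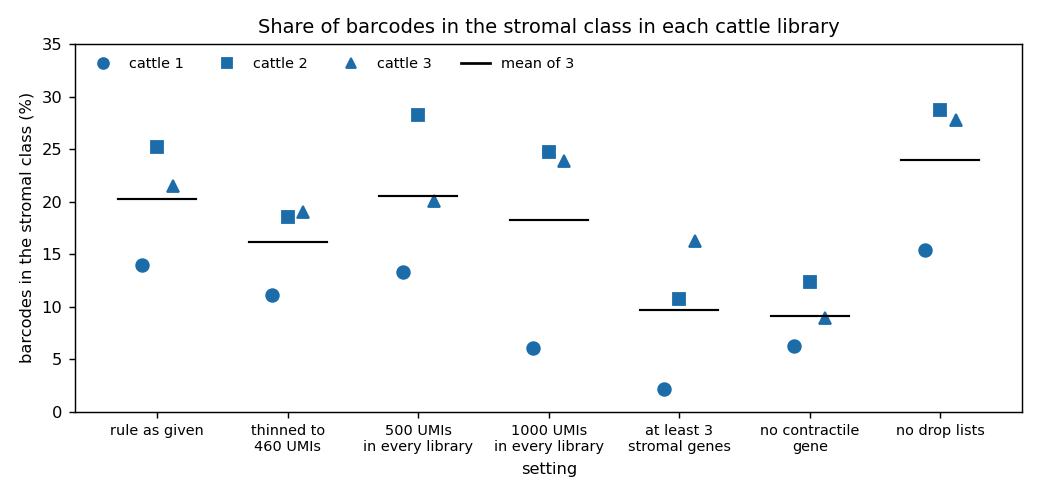
Share of barcodes in the stromal class for each cattle library under the rule as given and under other settings; the y axis is the percentage of barcodes, the x axis the setting, each point is 1 animal and each line the mean of 3. The 3 animals lie at 14.0%, 25.2% and 21.5% under the rule as given, and asking for at least 3 stromal genes or for no contractile gene lowers all of them.

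DCN carried the rule. It had a UMI in 97.4%, 99.8% and 98.7% of the members of cattle 1, 2 and 3, against 66.1%, 71.1% and 89.9% for TCF21, 31.9%, 63.7% and 77.1% for PDGFRA and 21.6%, 12.4% and 35.5% for LUM. The pair of TCF21 and DCN alone qualified 248, 710 and 204 members. TCF21, PDGFRA and DCN together qualified 37, 707 and 552, and all 4 genes were seen in 7, 99 and 341. Only 2 stromal genes were seen in 84.4%, 57.5% and 24.4% of the members, a share that fell as the libraries became deeper. Free RNA and barcodes with more than 1 cell put UMIs of a gene beside other cells, and barcodes with at least 2 lymphocyte genes, which should lack these genes, give the level of both together. TCF21 had a UMI in 7.29%, 9.43% and 23.1% of these and DCN in 16.2%, 26.6% and 47.9%, at median depths of 621, 1399 and 3870 UMIs, close to or above the 660, 1419 and 3416.5 of the members. The members' own shares of these genes were raised by the rule, so no excess over this level is read from them.

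The stromal rule was met by 3.64%, 7.99% and 10.8% of the lymphocyte-gene barcodes and by 3.03%, 15.3% and 19.7% of those with at least 2 macrophage genes. Of the members themselves, 9, 72 and 111 had at least 2 lymphocyte genes and 1, 29 and 54 had at least 2 macrophage genes. No doublet caller was run, and these barcodes may hold free RNA or more than 1 cell. Another cattle library held the barcode of 11, 32 and 12 members, and leaving all shared barcodes out kept the mean share at 20.2%.

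Counts were summed over the cells of a class within each animal and are given as CPM, UMIs per 1000000 UMIs of the sum. This chemistry counts transcript ends, so levels were not divided by gene length. Stromal cells gave 370489, 3603683 and 5135284 UMIs in cattle 1, 2 and 3. They were compared with 3842 myoid cells, which had at least 2 contractile genes, and with 1651 Leydig cells, which had at least 2 of CYP17A1, CYP11A1 and STAR. The myoid rule set no limit on stromal genes, and 203 of 478, 1431 of 1583 and 1689 of 1781 myoid cells, or 42.5%, 90.4% and 94.8%, also had at least 2 of the 4 stromal genes. In cattle 2 and 3 most myoid cells were thus barcodes with stromal genes that differed from members in their contractile genes. Median depth was 660, 1419 and 3416.5 UMIs in stromal cells, 813, 1840 and 5046 in myoid cells and 1024, 1828 and 4864.5 in Leydig cells, so members were the shallowest of these 3 classes in each library.

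TCF21 stood at 1290.2, 861 and 1044 CPM in stromal cells of cattle 1, 2 and 3, at 335, 453 and 598 in myoid cells and at 67.0, 98.7 and 117 in Leydig cells. The 3 classes did not overlap, as the rule arranges in part, but myoid cells held clear TCF21 RNA. A UMI of it was found in 23.6%, 52.1% and 84.1% of them. DCN stood at 3398, 5555 and 4539 CPM in stromal and 2273, 5131 and 3291 in myoid cells, higher in stromal cells of each animal, with overlap between animals. PDGFRA stood at 467, 658 and 447 CPM in stromal and 289.7, 885 and 792 in myoid cells, and LUM at 367, 144 and 164 and 231, 199 and 344. For both genes stromal cells were the higher class in cattle 1 and the lower one in cattle 2 and 3. In Leydig cells these 3 genes were lower than in stromal cells of each animal.

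**Figure D2:**
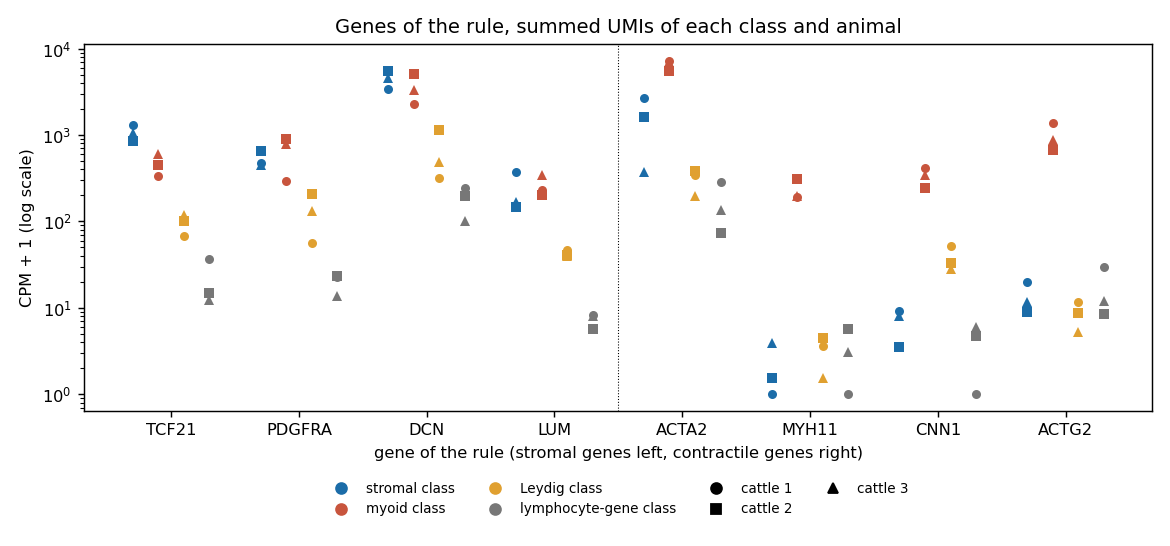
Level of the 4 stromal and 4 contractile rule genes in each animal by cell class, with a class of lymphocyte-gene barcodes. The y axis is CPM + 1 on a log scale and each point is 1 animal. This lymphocyte class, of 208, 738 and 636 barcodes, was limited to at most 1 stromal and at most 1 contractile gene. Its low levels of these genes are thus set in part by that limit and are no measure of background. TCF21, which the rule uses, is higher in stromal than in myoid cells of each animal, DCN, PDGFRA and LUM are shared by stromal and myoid cells, and ACTA2 reaches 2648, 1600.3 and 368 CPM in stromal cells of cattle 1, 2 and 3.

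Of the contractile genes, ACTA2, which encodes smooth muscle actin, was the one that members still carried, at 2648, 1600.3 and 368 CPM against 7246, 5539.8 and 7007 in myoid cells. MYH11, the smooth muscle myosin heavy chain, was at 0, 0.555 and 2.92 CPM against 192, 309.6 and 198. One contractile gene was allowed, and 274 of 495, 1124 of 2201 and 783 of 1334 members had one. Just outside the rule lay 153, 846 and 417 barcodes with at least 2 stromal and exactly 2 contractile genes, and 642, 1008 and 535 with at most 1 contractile gene and only 1 stromal gene. The members with 2 stromal genes were 418, 1265 and 326. So a large part of the class sat next to 1 or both of its limits.

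Outside the rule, and with ribosomal and mitochondrial genes set aside, MGP led by its mean over the 3 animals, 12188 ± 2258 CPM (SD, n = 3). It was at 9625, 13888 and 13049 CPM in cattle 1, 2 and 3. In cattle 1 it was not the first gene, since INSL3, TMSB4X and FTH1 were higher there. MGP (matrix Gla protein) is a secreted inhibitor of calcification. The cystatin gene CST3 was at 4809.9, 6190.3 and 7884 CPM, PTGDS, which makes prostaglandin D, at 5876, 6804 and 5873, and IGFBP6, a binding protein for insulin-like growth factors, at 4610.1, 3846 and 2622. MGP was lowest in cattle 1 and IGFBP6 in cattle 3, and PTGDS was highest in cattle 2. The other leaders were common to many cells, as B2M, TMSB4X, FTH1, TMSB10, ACTB and UBB are, or were GSTM3, IFITM3 and the class I MHC genes BOLA and JSP.1, members of gene families whose reads may be shared between copies. MGP, PTGDS and CST3 were also common outside the class. In barcodes with at least 2 stromal and exactly 2 contractile genes, MGP was at 10391, 18020 and 14742 CPM, above the members in each animal. In barcodes with 0 stromal and at most 1 contractile gene it was at 1770, 383 and 620 CPM. There PTGDS was at 10941, 9239 and 4949 CPM and CST3 at 4792, 4429 and 3165.

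INSL3, a Leydig cell hormone, was also among the 15 leading genes, at 12300.0, 1209.9 and 1647 CPM in stromal cells of cattle 1, 2 and 3. Myoid cells held 8921, 975 and 1287 CPM and Leydig cells 135140.0, 66545 and 85106 CPM. Droplets with at most 50 UMIs, which hold no cell, had 111273, 24508 and 17398 CPM. In each animal stromal and myoid cells were well below the empty droplets, and cattle 1 was highest in stromal cells, myoid cells and empty droplets alike. LHCGR, the receptor for luteinizing hormone, was at 2.70, 1.66 and 1.36 CPM in stromal and 60.4, 93.5 and 112 CPM in Leydig cells. Other Leydig genes were less far apart. The steroid list without INSL3 summed to 386, 389 and 281 CPM in stromal and 1109, 1890.2 and 1142 CPM in Leydig cells. GSTA3, a glutathione transferase from a family with similar copies, was at 3339, 762 and 576 CPM in stromal, 28475, 10719 and 15429 in Leydig cells and 25480.4, 8314 and 4609.8 in empty droplets. What the free RNA of each library added to members was not tested.

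RBP4, which carries retinol, INHBA, which encodes an activin subunit, and the transcription factor gene LHX9 were among the genes that were higher in stromal than in myoid cells, and the keratins KRT8 and KRT18, elastin and 12 of 16 smooth muscle genes outside the rule were lower. How many genes passed the test depended on whether the animals were matched. Over the 9 sums of 3 classes and 3 animals, edgeR's quasi-likelihood test without a block called 0 of 12052 genes in either direction (0.0%) at an adjusted p of 0.05, with 532 genes at an unadjusted p under 0.05, and DESeq2 called 12 higher and 19 lower. The sums of an animal come from 1 library and deviate together. With the animal as a replicate block, 334 genes were higher (2.77%) and 383 lower (3.18%) in stromal cells, 5.95% in either direction. All adjusted p-values for myoid cells below are from this blocked edgeR fit, and none of these genes passed without the block. Without cattle 3 the blocked counts were 63 higher and 88 lower. The cells were assigned from the same UMIs, so these tests describe how 2 gated classes differ and are no independent evidence of a separate cell type.

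RBP4, the carrier of retinol, was the most abundant of the 12 genes with the largest rise by the rule for named genes. It stood at 1355, 1242 and 1396 CPM in stromal cells of cattle 1, 2 and 3, at 306, 297 and 432 in myoid cells and at 63.1, 212 and 120.1 in Leydig cells, and the classes did not overlap. Its log2 fold change against myoid cells was 1.90 ± 0.18 (SE), with an adjusted p of 1.3e-10 in the blocked edgeR fit and 0.116 without the block. CRABP1, which binds retinoic acid inside the cell, was at 51.3, 74.6 and 59.4 CPM against 6.79, 16.3 and 13.3 in myoid cells, a log2 fold change of 2.09 ± 0.19 (SE). So both vitamin A binding genes were higher in members in 3 of 3 animals. CRABP1 was at 84.7, 138 and 54.9 CPM in members with 0 contractile genes and at 27.6, 25.2 and 62.2 in those with 1.

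INHBA, which encodes the activin A subunit, was at 111, 102 and 274 CPM in stromal, 22.6, 23.6 and 53.2 in myoid and 14.4, 24.2 and 25.6 in Leydig cells. Its log2 fold change against myoid cells was 2.16 ± 0.18 (SE), with an adjusted p of 3.2e-12 in the blocked edgeR fit. LHX9, a LIM homeobox factor of the early gonad, was at 62.1, 49.4 and 133 CPM against 11.3, 12.1 and 36.1 in myoid cells, 1.87 ± 0.19 (SE) on the log2 scale. STMN2, a regulator of microtubules best known from neurons, showed the largest difference, at 364, 69.7 and 128 CPM against 67.9, 7.34 and 8.38, or 3.26 ± 0.22 (SE). For each of these genes the highest myoid value lay below the lowest stromal one, with cattle 3 the highest member value for INHBA and LHX9 and cattle 1 for STMN2. NGFR, the low-affinity neurotrophin receptor, was at 32.4, 64.7 and 78.7 CPM against 18.1, 24.6 and 12.9.

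The other named genes that were higher than in myoid cells were CHI3L1, a chitinase-like glycoprotein, ID1, an inhibitor of basic helix-loop-helix factors, RPRM, a cell cycle inhibitor, FGL1, IGFBP5 and GDF10. Their log2 fold changes ran from 1.74 for GDF10 to 2.86 for CHI3L1. GDF10, a ligand of the TGF-beta family, was low, at 16.2, 20.5 and 29.4 CPM in stromal cells. The 12 genes were the first of 153 that met the conditions of at least 20 CPM and the same direction in 3 of 3 animals.

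Among the genes that were lower than in myoid cells, KRT8 and KRT18, paired keratins, were at 113, 28.3 and 17.5 and 83.7, 60.8 and 13.8 CPM in stromal cells against 437, 231 and 311 and 394, 244 and 368 in myoid cells. Their log2 fold changes were -3.25 ± 0.22 and -3.11 ± 0.27 (SE), with adjusted p-values of 5.6e-15 and 6.5e-12 in the blocked edgeR fit. ELN, the elastin of elastic fibres, was at 464, 224 and 118 CPM against 1293, 803 and 1571, or -2.41 ± 0.25 (SE). Both keratins and elastin were lower in members of 3 of 3 animals, and cattle 3 was farthest from its myoid level for all 3 genes.

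MYL7, a myosin light chain, had the largest difference of the 12 lower genes at -3.87 ± 0.26 (SE), and KCNMB1, a subunit of a calcium-activated potassium channel, followed at -3.26 ± 0.33 (SE). PLN (phospholamban), LMOD1 (leiomodin), NEXN (nexilin), TNNI1 (a troponin) and TPM2 (beta-tropomyosin) were also lower, as were SLC18A2, a vesicular monoamine transporter, and ENHO. The differences of the 12 genes ran from -3.87 to -2.33 on the log2 scale, and they were the first of 241 that met the conditions. All 12 genes higher and all 12 lower also passed when any 1 animal was left out of the blocked fit and without barcodes holding immune genes. They also passed when members with a contractile gene or fewer than 3 stromal genes were left out, which kept 22, 395 and 393 members. The genes had been picked as the largest changes of the blocked fit with 1 direction in 3 of 3 animals. Passing again on parts of the same data is therefore no independent support for them.

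**Figure D3:**
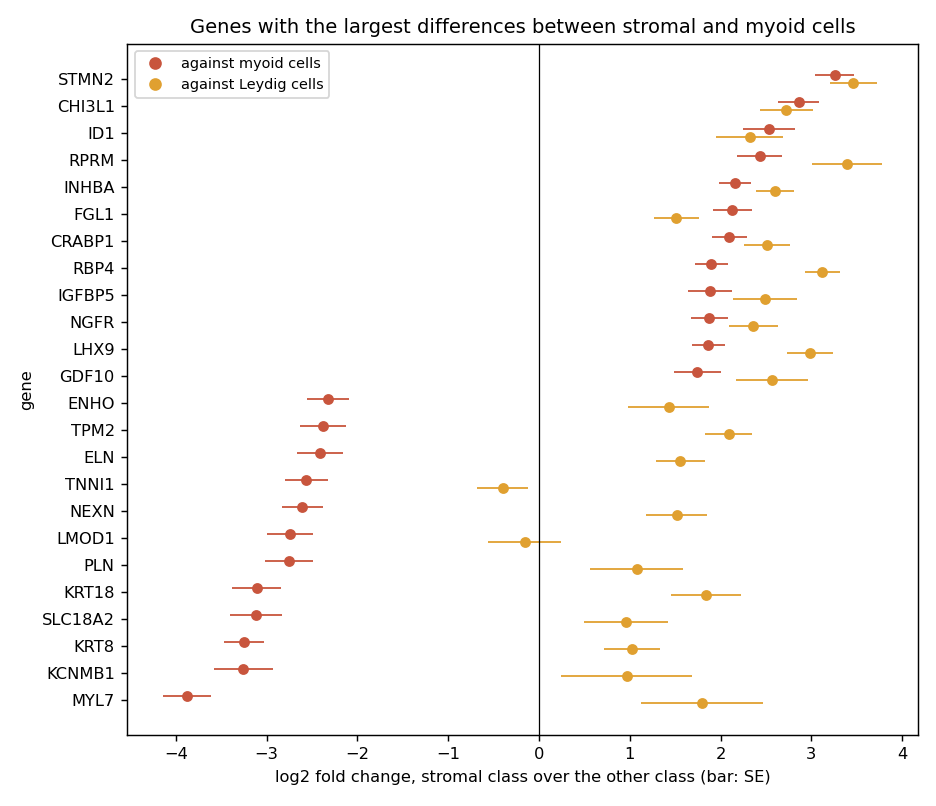
Log2 fold change of stromal over myoid and of stromal over Leydig cells, both from edgeR with the animal as a block, for the 12 genes higher and the 12 lower in stromal than in myoid cells by the rule for named genes; points are estimates and bars are 1 SE. The 12 higher genes lie above 0 against both classes, and of the 12 lower genes all but TNNI1 and LMOD1 lie above 0 against Leydig cells.

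RBP4 and ELN changed in steps along the number of contractile genes, on both sides of the limit of the rule, and not every named gene did so. STMN2 in cattle 1, for one, was at 665, 152, 91.3 and 102 CPM with 0, 1, 2 and 3 or 4 of them. This is a description, since the steps are those of a rule gene count. With 0, 1, 2 and 3 or 4 contractile genes among barcodes with at least 2 stromal genes, RBP4 was at 1753, 1074, 393 and 184 CPM in cattle 1, at 1945, 691, 379 and 199 CPM in cattle 2 and at 1471, 1349, 851 and 338 CPM in cattle 3. It was lower at each step in each animal. ELN went the other way, with 117, 709.7, 1109 and 1552 CPM in cattle 1, 68.8, 346, 669 and 1005 CPM in cattle 2 and 100.3, 129, 699 and 1906 CPM in cattle 3. Members with 1 contractile gene lay between members with none and barcodes outside the rule for both genes, nearer to those with none in cattle 3. They were nearer to barcodes with 2 contractile genes for RBP4 in cattle 2 and for ELN in cattle 1. Depth rose along the same steps, with medians of 573, 732.5, 822 and 914 UMIs in cattle 1, 1206, 1645.5, 1784 and 1952 in cattle 2 and 3267, 3576, 4455 and 5271 in cattle 3, and its part in the steps was not tested.

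**Figure D4:**
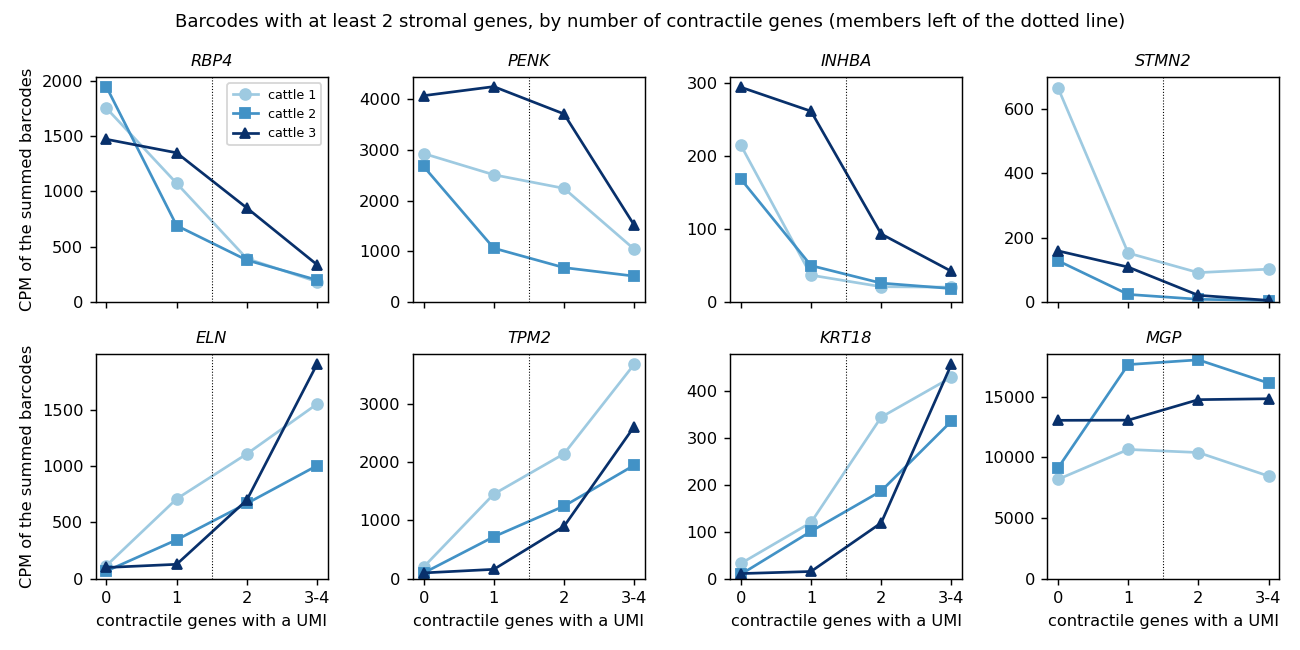
Level of genes higher or lower in stromal than in myoid cells, by the number of contractile rule genes with a UMI among barcodes with at least 2 stromal genes; the y axis is CPM on a linear scale from 0 and each line is 1 animal. Barcodes with 0 or 1 contractile gene are members; RBP4 is lower and ELN higher at each step in the 3 animals.

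Against Leydig cells, 7 of 11 collagen genes and 6 of 11 TGF-beta and BMP genes were higher in stromal cells with the animal as a block, and 9 of 10 further steroid genes and 12 of 12 mitochondrial genes were lower. Without a block, edgeR called 500 genes higher (4.15%) and 564 lower (4.68%) of the 12052 tested, 8.83% in either direction, and with the animal as a replicate block 1758 higher (14.6%) and 1548 lower (12.8%), 27.4% in either direction, which contained all genes called without it. Without cattle 2 the unblocked counts were 66 and 73, and without cattle 3 they were 70 and 99. The split between directions depended on the scaling: 47.0% of the calls were higher in stromal cells with TMM normalization and 70.0% with library size alone, which moved the median log2 fold change of all genes from 0.10 to 0.37. Adjusted p-values for Leydig cells below are from edgeR without the block unless the block is named.

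RBP4 and LHX9 were again among the 12 genes with the largest rise, at log2 fold changes of 3.08 ± 0.37 and 2.97 ± 0.57 (SE), and STMN2 led at 3.45 ± 0.91 (SE), with an adjusted p of 0.0344 in edgeR. TGFB2, a TGF-beta ligand, was at 13.5, 36.1 and 59.8 CPM in stromal and 1.31, 5.20 and 4.80 in Leydig cells, and MFAP5, a microfibril protein, at 167, 81.9 and 94.6 against 7.88, 16.5 and 10.7. Both were higher in 3 of 3 animals with no overlap. The others were RPRM, ID3, TPPP3, GPRC5C, REM1, PLEKHA5 and TM4SF1, with changes from 2.91 to 3.36. In the blocked fit, 185 of the 12052 genes tested were higher in stromal cells than in both other classes. Of all genes, 2.77% were higher than in myoid and 14.6% higher than in Leydig cells. Both comparisons use the same stromal sums, so they are not independent and some overlap follows from that.

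Of the genes that were lower than in Leydig cells, KCNF1, a potassium channel subunit, had 0 UMIs among 9109456 in stromal cells and 91 in Leydig cells, at least 72.9-fold lower against a floor of 3 counts over the group. LHCGR differed by -6.06 ± 0.44 (SE) on the log2 scale, with an adjusted p of 5.5e-05 in edgeR. CHCHD10, a mitochondrial protein, was at 0, 1.11 and 3.51 CPM against 114, 65.8 and 247, and KIT, the receptor tyrosine kinase, at 10.8, 1.66 and 3.51 against 106, 47.6 and 152. Members were lower in 3 of 3 animals for each. ADAD2, GRAMD1B, which moves cholesterol between membranes, MSMB, MASP1, TTC36, GRHL1, GSTA5 and SLC5A11 made up the rest. GSTA5 belongs to a family of similar glutathione transferases whose reads may be shared, and most of its Leydig RNA was in cattle 1, with 144, 6.93 and 7.47 CPM in the 3 animals.

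The matrix genes were compared list by list. Genes were counted by identifier, and MYL9, LAMC1 and VCAM1 each had 2 among those tested. For each list the counts are those called in the blocked edgeR fit, to be read against 2.77% higher and 3.18% lower of all genes for myoid cells and 14.6% and 12.8% for Leydig cells, and the medians against 0.03 and 0.11 for all genes. Of 11 fibrillar and fibril-associated collagen genes tested, 7 were higher and 1 lower than in Leydig cells, and 0 were higher and 3 lower than in myoid cells. COL1A1, a chain of type I collagen, was at 1153, 1157 and 994 CPM in stromal, 1499, 1506 and 1167 in myoid and 101, 299.6 and 153 in Leydig cells, and COL1A2 at 1417, 1346 and 1583, 1598, 1817 and 1667 and 134, 481 and 274. Type I collagen levels in members were thus near those of myoid cells and several times those of Leydig cells. COL3A1 was at 194, 105 and 79.6 CPM against 238, 141 and 120.3 in myoid cells, with an adjusted p of 0.0348 in the blocked edgeR fit. Without the block 6 collagen genes were higher than in Leydig cells and none passed against myoid cells.

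Basement membrane genes were mixed, with 1 of 14 higher and 3 lower than in myoid cells and 4 higher and 3 lower than in Leydig cells. COL4A1, of type IV collagen, was at 154, 117 and 57.6 CPM in stromal, 179, 158 and 131 in myoid and 185, 307 and 228 in Leydig cells, lowest in members in 3 of 3 animals. LAMA2, a laminin chain, was at 56.7, 141 and 54.9, 77.0, 183 and 116 and 9.19, 28.6 and 10.7 CPM, lower than in myoid cells and higher than in Leydig cells. Of 8 small leucine-rich proteoglycan genes outside the rule, 4 were higher and 1 lower than in Leydig cells, and 1, PRELP, was higher than in myoid cells. OGN (osteoglycin) was at 561, 1853 and 1784 CPM in stromal and 555, 2292 and 1756 in myoid cells, and BGN (biglycan) at 699, 633 and 285 and 740.2, 844 and 429. Neither gene passed against myoid cells, and OGN differed more between cattle 1 and the other animals than between these classes.

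Of 19 elastic fibre and matrix glycoprotein genes, 14 were higher and 1 lower than in Leydig cells, and 2 were higher and 6 lower than in myoid cells. EFEMP1, a fibulin, was one of those that were higher than in both, at 45.9, 64.1 and 104 CPM against 6.79, 21.7 and 28.3 in myoid and 2.63, 9.52 and 11.7 in Leydig cells. FN1 (fibronectin) was lower than in myoid cells, at 24.3, 33.0 and 12.1 CPM against 56.6, 76.6 and 68.1. MFAP2, a microfibril protein, was at 472, 499 and 311 CPM against 593, 647 and 389.7 in myoid and 46.0, 100.4 and 34.7 in Leydig cells. Of 19 matrix processing genes, 8 were higher and 1 lower than in Leydig cells, and 1 was higher and 4 lower than in myoid cells. The 1 lower than in Leydig cells was TIMP2, an inhibitor of metalloproteinases, at 1355, 581 and 446 CPM in stromal against 20243, 12625 and 14240.0 CPM in Leydig cells.

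Hedgehog ligand from Sertoli cells is read by receptors on interstitial cells, and GLI1 and HHIP are targets of that pathway. GLI1 was at 10.8, 31.1 and 28.8 CPM in stromal, 29.4, 32.6 and 30.7 in myoid and 0, 6.93 and 5.87 in Leydig cells, with a log2 fold change against Leydig cells of 2.16 ± 0.53 (SE) and an adjusted p of 0.0248 in edgeR. HHIP was at 13.5, 18.0 and 17.9 CPM in stromal, 36.2, 21.1 and 23.7 in myoid and 5.25, 2.60 and 1.07 in Leydig cells, with a log2 fold change against Leydig cells of 2.49 ± 0.48 (SE). Both were higher than in Leydig cells in 3 of 3 animals and passed with and without the block. Of 5 hedgehog genes tested, 3 were higher and 1 lower than in Leydig cells with the block. SMO, the signal transducer of the pathway, was the 1 lower, and none of the 5 passed against myoid cells. Of 5 further platelet-derived growth factor genes only PDGFRL passed, higher than in Leydig cells with the block.

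Of 11 genes of the TGF-beta and BMP list, 4 were higher and 2 lower than in myoid cells, and 6 were higher than in Leydig cells. The 4 were BMP4, TGFB2, GDF10, all ligands, and the receptor TGFBR2. BMP4 was at 51.3, 46.1 and 63.3 CPM in stromal against 24.9, 21.1 and 21.0 in myoid and 17.1, 6.06 and 18.2 in Leydig cells, with no overlap. TGFBR2 was at 37.8, 66.9 and 102 CPM against 11.3, 31.9 and 36.6 in myoid cells, higher in 3 of 3 animals. LTBP1 and LTBP4, which store latent TGF-beta in the matrix, were the 2 that were lower, although LTBP1 was higher in members of cattle 1, at 32.4, 23.0 and 34.3 CPM against 24.9, 41.2 and 62.1. Of 10 WNT genes, 3 were higher and 3 lower than in myoid cells, and 5 were higher and 1 lower than in Leydig cells. WNT2B was at 83.7, 63.8 and 102 CPM against 9.19, 11.3 and 12.8 in Leydig cells, and RSPO3, an enhancer of WNT signals, was low at 8.10, 5.55 and 19.3 CPM.

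Among insulin-like growth factor genes, 4 of 10 were higher than in myoid cells and 0 lower, and 6 were higher and 2 lower than in Leydig cells. IGF2 was the ligand with the most RNA, at 1379, 1404 and 2904 CPM in stromal and 1424, 1377 and 2662 in myoid cells, with cattle 3 highest in both. IGF1 was far lower, at 10.8, 18.9 and 54.5 CPM against 4.53, 8.30 and 24.8 in myoid cells, a log2 fold change of 1.05 ± 0.21 (SE). IGFBP6 was at 4610.1, 3846 and 2622 CPM in stromal, 4145, 3845 and 2546 in myoid and 453, 914 and 400.4 in Leydig cells. Of 8 growth factor and niche signal genes tested, 2 were higher and 3 lower than in myoid cells. The 2 were INHBA and CCL2, and the 3 lower were the chemokines CXCL12 and CXCL14 and the cytokine IL34. CXCL12 was at 35.1, 14.4 and 45.0 CPM against 38.5, 31.3 and 64.6. Against Leydig cells 5 of the 8 were higher and 1 lower.

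Of 19 mesenchymal and gonadal transcription factors outside the rule, 5 were higher and 0 lower than in myoid cells, namely LHX9, EMX2, EBF1, MEIS1 and TBX18, the last at only 0, 0.277 and 2.92 CPM in members. EMX2, a homeobox factor needed for the urogenital system, was at 54.0, 54.1 and 85.9 CPM against 13.6, 21.4 and 26.5 in myoid and 31.5, 24.2 and 35.8 in Leydig cells, with a log2 fold change of 1.48 ± 0.18 (SE) against myoid cells. NR2F2 (COUP-TFII), a nuclear receptor of interstitial cells, was the factor with the most RNA, at 262, 379 and 402 CPM against 274, 401 and 488 in myoid cells, and did not pass against them. OSR1 was at 216, 169 and 228 CPM against 222, 171 and 245 in myoid and 18.4, 41.6 and 43.8 in Leydig cells. In all, 8 of the 19 were higher and 3 lower than in Leydig cells, NR5A1, the steroidogenic factor, among the latter. Of 6 NOTCH genes 1 was higher than in myoid cells, and 2 were higher and 1 lower than in Leydig cells. The NOTCH target HEYL was at 157, 129 and 119 CPM against 81.5, 123 and 121 in myoid and 13.1, 31.2 and 13.9 in Leydig cells.

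Fibroblasts of vessel walls carry CLEC3B, GSN, DPT and SCARA5, and 3 of 8 genes of that list were higher than in Leydig cells and none passed against myoid cells. CLEC3B was at 1914, 1867 and 1519 CPM in stromal, 1413, 1687 and 1072 in myoid and 1737, 1378 and 1324 in Leydig cells, and the 3 classes overlapped. Of 10 mesenchymal surface genes, 3 were higher and 2 lower than in myoid cells, with 5 higher than in Leydig cells. THY1, the CD90 antigen, was at 146, 101 and 106 CPM against 238, 168 and 208 in myoid cells and was lower in 3 of 3 animals. VCAM1, an adhesion molecule, was at 72.9, 84.9 and 62.7 CPM against 13.6, 35.1 and 15.2 for the one with more RNA. Of 5 pericyte genes, 1 was higher and 2 lower than in myoid cells and 2 were higher than in Leydig cells. The 1 was RGS5, low at 2.70, 7.77 and 23.2 CPM.

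Of 10 retinoid genes tested, 2 were higher and 0 lower than in myoid cells, and 4 were higher and 1 lower than in Leydig cells. RBP4 and CRABP1 were higher than in both classes, RARRES2 was higher than in Leydig cells, and ALDH1A1, which makes retinoic acid, was lower. ALDH1A1 was at 332, 253 and 250.2 CPM in stromal against 1972, 5983 and 7000.4 CPM in Leydig cells, a log2 fold change of -4.44 ± 0.44 (SE) without the block. Of 9 complement genes, 6 were higher and 1 lower than in Leydig cells, and CFD alone was higher than in myoid cells. C7, of the terminal complement pathway, was at 437, 646 and 780.5 CPM against 358, 572 and 530.0 in myoid and 77.5, 162 and 127 in Leydig cells. CLU (clusterin) was at 1687, 2035 and 1947 CPM against 964, 978 and 668 in Leydig cells. Of the 10 further steroid genes, 9 were lower than in Leydig cells and none passed against myoid cells. SCARB1, the receptor for cholesterol-rich lipoprotein, was at 35.1, 28.0 and 20.3 CPM against 379.6, 778 and 374. Only 2 steroid receptor genes had enough counts, and NR3C1, the glucocorticoid receptor, was higher than in both classes with the block, at 8.10, 50.8 and 70.1 CPM against 13.6, 26.2 and 33.2 in myoid cells, where cattle 1 went the other way.

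**Figure D5:**
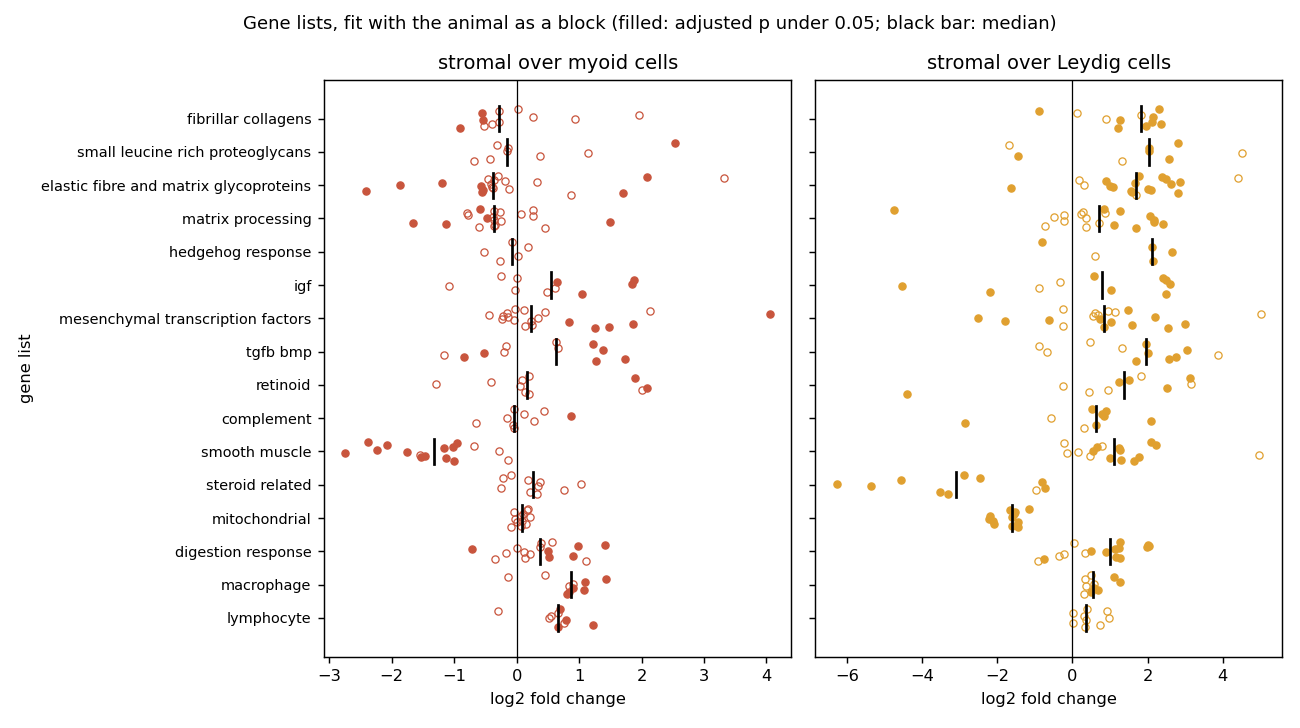
Log2 fold change of the genes of selected lists in stromal cells against myoid and Leydig cells, from edgeR with the animal as a block; each point is 1 gene, filled where its adjusted p was under 0.05, and the black bar is the median of the list. Smooth muscle genes lie below 0 against myoid cells and mostly above 0 against Leydig cells, and matrix genes lie mostly above 0 against Leydig cells.

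Smooth muscle genes outside the rule set the members between the other classes. Of 16 tested, 12 were lower and 0 higher than in myoid cells, with a median log2 fold change of -1.31, and 10 were higher than in Leydig cells. Their summed level was 5331, 4007 and 2687 CPM in stromal cells of cattle 1, 2 and 3, 10460, 8219 and 10446 CPM in myoid cells and 1503, 1710.1 and 1299.9 CPM in Leydig cells, with CALD1 the most abundant. TAGLN (transgelin) was at 909.6, 606 and 239.7 CPM in stromal and 2452, 1722 and 2078 in myoid cells, and MYLK, the myosin light chain kinase, at 224, 218 and 161 and 844, 678 and 1149. The groups did not overlap, and in stromal cells cattle 1 was the highest and cattle 3 the lowest for both.

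Immune genes were also higher in stromal than in myoid cells. Of 10 macrophage genes, 6 were higher in the blocked edgeR fit, and of 9 lymphocyte genes, 4 were. Their summed levels were 729, 1066 and 2009.8 CPM for the macrophage list in stromal cells, 616, 676 and 1083 in myoid cells and 34015, 44048 and 35986 in macrophage-gene barcodes, with C1QA the most abundant. For the lymphocyte list they were 462, 373 and 669.9 CPM in stromal, 301, 237 and 351 in myoid and 12905, 11943 and 9394 in lymphocyte-gene barcodes, with CCL5 the most abundant. The macrophage-gene and lymphocyte-gene barcodes of these sums were limited to at most 1 stromal and at most 1 contractile gene. In cattle 1, 1 macrophage and 2 lymphocyte genes were at 0. When barcodes with at least 2 genes of either type were left out of all classes, 2 of the 10 macrophage and 1 of the 9 lymphocyte genes were higher, and 278 genes in all were higher and 348 lower than in myoid cells. Against Leydig cells 5 of the 10 macrophage genes and 0 of the 9 lymphocyte genes were higher with the block, and these counts were the same without such barcodes. The counts of all genes against Leydig cells were then 575 higher and 595 lower without the block and 1802 and 1565 with it.

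Genes of other cell types were measured as well. The endothelial genes outside the rule summed to 13.5, 9.99 and 8.96 CPM in stromal cells against 695, 509 and 363 in endothelial barcodes, with VWF the most abundant and 3 of them at 0 in cattle 1. The endothelial class of cattle 1 was only 2 barcodes with 1438 UMIs, against 38 barcodes in cattle 2 and 38 in cattle 3. EMCN was higher than in Leydig cells with the block, and none of the 3 tested passed against myoid cells. Of 6 Sertoli genes, AARD was higher than in myoid cells and 2 were lower than in Leydig cells, and the list summed to 596, 660.4 and 489 CPM against 7792, 5324 and 4115 in Sertoli barcodes, with INHA the most abundant. The log2 fold change of AARD against myoid cells was 0.58 with the block and 0.44 without it. Under the stricter stromal rule without the block it was -0.34 and did not pass. Of 4 germ cell genes outside the rule, UCHL1 was lower than in myoid cells and KIT lower than in Leydig cells. The 1 erythroid gene tested, AHSP, stood at 0, 1.39 and 0.389 CPM in members and passed in neither comparison.

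Cell division genes differed little from myoid cells, and 1 of 12 outside the rule passed there, while 4 were higher than in Leydig cells. HMGB2 was the 1, at 208, 218 and 222 CPM in stromal, 131, 125 and 128 in myoid and 48.6, 67.5 and 50.2 in Leydig cells. Barcodes with at least 3 dividing genes had been dropped from the 3 classes. Of 16 genes that respond to tissue digestion, 5 were higher and 1 lower than in myoid cells, and 10 were higher and 1 lower than in Leydig cells. MYC was at 89.1, 59.4 and 90.9 CPM against 31.7, 26.8 and 27.2 in myoid cells and FOS, an immediate early gene, at 607, 296 and 680.2 against 503, 255 and 305. The part of the digestion in these levels was not tested. Mitochondrial genes took 0.721%, 2.38% and 2.74% of stromal UMIs against 2.24%, 5.80% and 7.39% in Leydig cells, and all 12 tested were lower than in Leydig cells with the block, 4 of them without it. Against myoid cells none passed.

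Within the class, genes were ranked in each animal by the variance over the mean of UMIs after thinning each member to 460 UMIs, and MGP, CCL5, BoLA DR-ALPHA, C1QA and CD52 had the highest mean rank over 3 animals among 769 genes. The first gene differed between animals. It was INSL3 in cattle 1, at a variance over mean of 18.7, C1QC in cattle 2, at 6.05, and CD74 in cattle 3, at 6.55, and GSTA3 was the next in cattle 1. Of the leaders over the 3 animals, CCL5, BoLA DR-ALPHA, C1QA and CD52 are immune cell genes. C1QA had a UMI in 6.06%, 6.22% and 9.22% of the thinned members, and CCL5 in 5.66%, 5.45% and 6.30%. MGP had one in 92.5%, 94.2% and 90.6%, so that its spread was one of amount. PENK, which encodes the opioid precursor proenkephalin, was also among the most variable genes.

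PENK stood at 2680.2, 1768 and 4174 CPM in stromal, 1594, 593 and 1917 in myoid and 227, 265 and 470.3 in Leydig cells, with log2 fold changes of 1.07 ± 0.16 (SE) against myoid cells in the blocked fit and 2.87 ± 0.46 (SE) against Leydig cells without it. It was higher in members in 3 of 3 animals, and was named after its values were seen. Among members with TCF21 RNA it was at 2994, 2138 and 4486 CPM, and among those without at 2128, 949.5 and 1667. RBP4 was at 1614, 1536 and 1506 CPM in members with TCF21 and at 900.4, 592 and 514 in those without. Members without a TCF21 UMI were thus lower in both genes in each animal, which is a description, since TCF21 is a gene of the rule. They also differed in RNA of other cell types. ACTA2 was at 3639, 2176 and 341 CPM in members without and at 2084, 1340.0 and 371 in members with TCF21, higher without it in cattle 1 and 2. CD74, of antigen-presenting cells, was at 461, 936 and 5048 CPM in members without and 1038, 1481 and 1233 in members with TCF21, and CCL5 at 171, 256 and 994 and 301, 245 and 269.5, so that cattle 3 had much more of both in members without it. The part of such RNA in the levels of PENK and RBP4 was not tested.

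Across members, PENK and RBP4 had Pearson correlations of 0.22, 0.42 and 0.45 in cattle 1, 2 and 3 on depth-scaled log values, and TCF21 and RBP4 0.20, 0.35 and 0.44. PTGDS and GSTM3 had 0.31, 0.31 and 0.61, and MGP and DCN 0.13, 0.51 and 0.75. TMSB4X and TCF21 had -0.25, -0.26 and -0.35. These are descriptions over the 495, 2201 and 1334 members of 1 library each, which share depth and free RNA. TCF21 and DCN are genes of the rule, so members were chosen by the same UMIs that enter the pairs with them. The pairs were picked from a larger set of pairs. None of the 5 pairs given here had a stronger correlation in cattle 1, the shallowest library, than in the other animals. BOLA and JSP.1 had 0.57, 0.50 and 0.66, higher in cattle 1 than in cattle 2.

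Some genes differed widely between animals, and those given here were chosen after their values were seen. IFI6, which is induced by interferon, was at 904, 792 and 7083 CPM in stromal cells of cattle 1, 2 and 3, at 1207, 1158 and 9168 CPM in myoid cells and at 549, 618 and 4958 CPM in Leydig cells. MX1 and OAS1Y, which act against viruses, were at 24.3, 35.5 and 305 CPM and at 113, 129.6 and 564 CPM in stromal cells. PLAC8 was at 32.4, 83.2 and 490.3 CPM and HMOX1, which degrades heme, at 51.3, 51.6 and 288. Cattle 3 was the highest in each of the 3 classes for these genes, so the difference was not one of stromal cells alone. Cattle 1 stood apart in ATP6V1C2, a proton pump subunit, at 329, 4.44 and 6.04 CPM, and in CD9, a tetraspanin, at 602, 92.4 and 46.9 CPM in stromal cells. Cattle 1 was also the highest for both genes in myoid cells, Leydig cells and empty droplets. ATP6V1C2 was at 274, 5.75 and 5.91 CPM in myoid cells and at 279, 9.14 and 16.9 CPM in empty droplets. With 1 library an animal, an animal and its library cannot be told apart.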

How the data were processed

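Cattle testis cells were profiled as 3 single-cell libraries, 1 per animal. The authors assigned reads to genes and barcodes with Cell Ranger, version 2.1.0 in the submitters' processing notes, against ARS-UCD1.2, and deposited raw UMI counts for each gene and each of 737280 barcodes, before any selection of cells. Of 19994 genes listed, 16350 carry a symbol. No column of another sample was used, and the pig counts enter only as a rate under the same rule. No doublet caller was run. No mitochondrial limit was set.

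The UMI minimum of a cattle library was 10% of the 99th percentile of its 3000 largest barcode totals. Summing over the cells of a class gave 9 columns of counts, for stromal, myoid and Leydig cells in 3 animals. Genes reaching 10 counts in total entered edgeR's quasi-likelihood fit (version 4.0.16, R 4.3.3), scaled by TMM, and p-values were adjusted after Benjamini and Hochberg over every gene tested, with 0.05 as the limit. Genes of the rules were left out of the tests. DESeq2 1.42.0 was an alternative. With 3 animals and 9 sums the fit had 6 residual degrees of freedom without and 4 with the animal as a block. Deviations from the class means correlated at 0.56 to 0.82 in 9 pairs of sums from the same animal and at -0.71 to 0.19 in 18 pairs from different animals, so the sums were treated as paired by animal and both fits are given.

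Named genes were the 12 with the largest change in each direction among those past 0.05 with a symbol, at least 20 CPM in the higher class and the same direction in 3 of 3 animals, the 15 most abundant genes, and 2 to 6 genes of each of 30 lists. For myoid cells this was applied to the blocked fit after it was seen that no gene passed without the block. The genes that differed between animals, PENK, GSTA3, CD74 and C1QC were named after their values were seen. Some genes of these lists are not reported here. The members and lists were chosen with earlier results of these data known.

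Depth differed between animals, with 370489 to 5135284 UMIs in stromal sums. Labels do not say whether animals shared a litter or day, so p-values speak for these animals and their libraries only. Those without the block set class differences against the spread between the animals and their libraries. Those with the block set them against what is left after the level of each animal is taken out, and do not measure the spread between animals.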

Additional observations from a re-analysis of the deposited data

How the results depend on the processing

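The comparison with myoid cells rested on the pairing by animal. With the animal as a replicate block, 334 genes were higher and 383 lower, against 0 and 0 without it. Without the block the counts were 12 and 19 with DESeq2, 6 and 13 with no filter on low counts, 31 and 73 with the stricter stromal rule, 3 and 3 with the stricter comparison class of at least 3 contractile and at most 1 stromal gene, which left 52, 40 and 4 myoid cells and moved the median log2 fold change of all genes from 0.03 to 0.79, 4 and 7 with barcodes of 1 to 2 times the UMI minimum, 4 and 18 with myoid cells of at least 3 contractile genes, and 0 to 6 and 0 to 3 when 1 animal was left out. In the comparison with Leydig cells, 500 genes were higher and 564 lower without the block and 1758 and 1548 with it. Library size alone gave 933 higher and 399 lower. Leaving out 1 animal gave 66 to 643 higher and 73 to 731 lower. Settings that join the block with another choice were added after seeing the data. Among them, leaving out 1 animal gave 63 to 286 higher and 88 to 331 lower against myoid cells and 795 to 1523 and 967 to 1367 against Leydig cells, and the stricter stromal rule gave 1126 higher against Leydig cells. The cause of these changes was not tested, beyond the loss of an animal or of cells. The mean share of members was 9.70% with at least 3 stromal genes and 9.14% with no contractile gene.

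Of the single genes named, 2 that passed no threshold against Leydig cells passed it in the other direction: AARD had a log2 fold change of 1.67 with the stricter comparison class, and TNNI1 -4.07 with the stricter stromal rule. The other direction is meant against the fit without a block. In the blocked fit TNNI1 was not on the higher side against Leydig cells. Across the alternatives the other values of named genes gave 1756 outcomes on the same side of the threshold, 129 that fell short of it and 97 that newly passed against Leydig cells, and 1809 on the same side and 173 newly past it against myoid cells. The reference was the fit without a block, in which no gene passed against myoid cells. The 1809 are therefore values that still did not pass, and none could fall short.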

Other observations

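The pig libraries of the same study, which list only barcodes with at least 500 UMIs, gave 172 of 6220, 4859 of 22920 and 2404 of 8808 barcodes under the same rule, or 2.77%, 21.2% and 27.3%. The pig gene table lists 22 of the 26 rule genes, so fewer genes could admit or drop a barcode, and no comparison with cattle was made.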
